A study of Mus musculus with 4 samples.

Results

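Plasmacytoid dendritic cells (pDCs) were examined among the CD45-positive cells of a mouse melanoma. They were chosen by their UMIs (unique molecular identifiers, each the count of 1 captured RNA molecule), as cells with at least 3 UMIs of *Siglech*, at most 1 UMI summed over *Cd3d*, *Cd3e* and *Cd3g*, and fewer than 10 UMIs summed over *C1qa*, *C1qb* and *C1qc*. This selected 237 of the 8822 cells kept in the CD45 sort, and the 4 libraries of the study together held 11516 kept cells. A cell was kept if it had at least 1000 and fewer than 6000 detected genes and less than 10% of its UMIs from mitochondrial genes. Because *Siglech*, the CD3 genes and the C1q genes chose the cells, and because every other gene was read in the same cells, all levels below are descriptions and carry no test.

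The tumors came from B16-F10 melanoma cells carrying ZsGreen (ZsG), a bright cytoplasmic fluorescent protein whose expression was switched on by doxycycline (dox); the cells were 1 clone picked for brightness. They were injected subcutaneously into wild-type C57BL/6 mice, which received dox in their drinking water, and tumors were taken on day 8. CD45-positive cells were sorted by ZsG into a negative and a positive library, the latter holding immune cells that had taken up the tumor protein, and a separate experiment sorted T cells (CD45+ TCRb+) in the same way. The ZsG-positive gate of the CD45 sort took bright cells, so that cells with dimmer ZsG could fall into the ZsG-negative gate. Each gate was 1 library, and the number of mice behind it and any pooling are not given in the sources used here. With 1 library per gate there is no spread between replicates. The 95% intervals below are exact Poisson intervals for UMI sums, exact binomial (Clopper-Pearson) intervals for shares and exact conditional intervals for ratios, and they cover counting error only.

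pDCs are dendritic cells (DCs) that circulate in the blood and are known for making large amounts of type I interferon when Toll-like receptors in their endosomes meet viral or self nucleic acids. The E protein TCF4 holds their identity, together with the factors SPIB, RUNX2, BCL11A and IRF8, while ID2, an inhibitor of E proteins, marks the conventional DC branch. In resting form they carry a well-developed secretory apparatus, little MHC class II and few costimulatory molecules, and they share several transcripts with lymphoid precursors.

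Of the ZsG-negative cells, 211 of 4699 were pDCs (4.49%, interval 3.92 to 5.12%), against 26 of 4123 ZsG-positive cells (0.631%, 0.412 to 0.923%). The share was 7.12-fold lower in the ZsG-positive library (4.73 to 11.2). Conventional DCs, defined by at least 2 UMIs of *Xcr1* and *Clec9a* together or at least 3 of *Cd209a*, and 0 of *Siglech*, went the other way, with 90 ZsG-negative cells (1.92%) and 327 ZsG-positive cells (7.93%). As a result pDCs made up 70.1% of both DC classes (64.6 to 75.2%) in the ZsG-negative library and 7.37% (4.87 to 10.6%) in the ZsG-positive library. The conventional DC rule has no limits on CD3 and C1q. With the limits of the pDC rule 77 and 197 conventional DCs were left, and pDCs made up 73.3% and 11.7% of both classes (interval of the latter 7.76 to 16.6%). Only 10.97% of all pDCs came from the ZsG-positive library (7.29 to 15.7%), compared with 78.4% of conventional DCs, 99.7% of cells with at least 10 C1q UMIs, 18.8% of T cells and 5.40% of NK cells. The share depended on the mitochondrial limit. The median mitochondrial share was 6.37% in ZsG-negative and 4.65% in ZsG-positive pDCs, and with a limit of 5% only 33 and 16 pDCs were left, at shares of 1.005% and 0.432% (log2 ratio -1.22, -2.18 to -0.32). Shares of cells in a gate are also set by the sort itself and by how many cells of the other types fell into that gate.

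**Figure D1:**
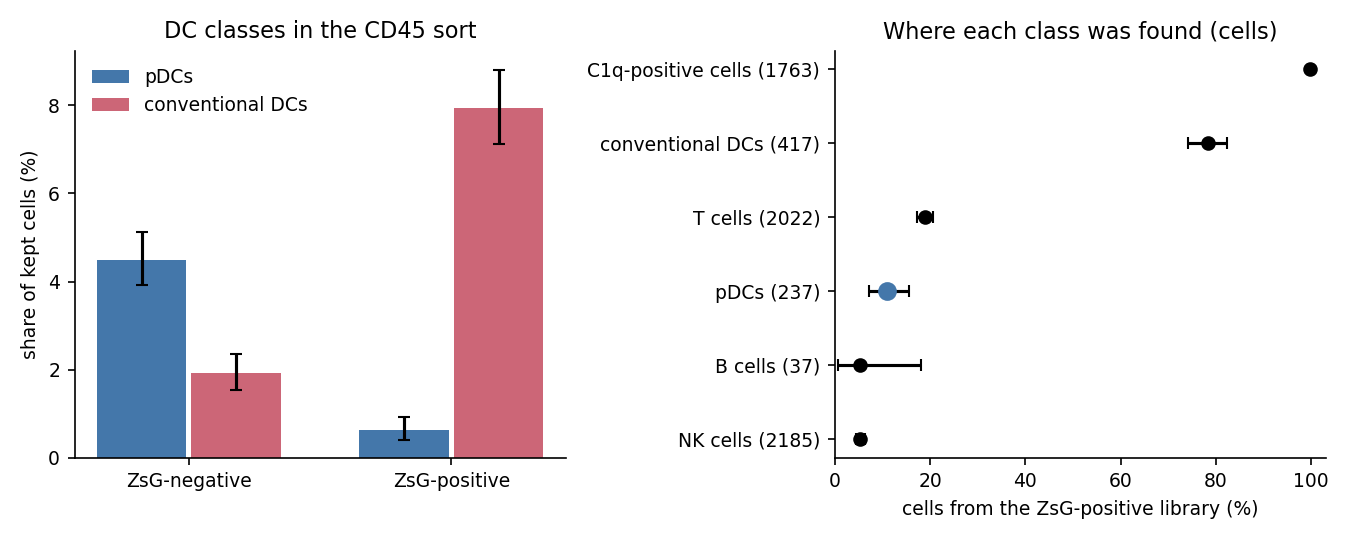
Left, bars give the share (%) of kept cells that were pDCs or conventional DCs in each library, with exact binomial intervals. Right, points give the percentage of each class's cells that came from the ZsG-positive library, with the number of cells in parentheses and pDCs in blue; pDCs lie at 10.97% and conventional DCs at 78.4%.

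The deposited counts gave each ZsG-negative pDC 3239 to 19312 UMIs (median 8523) and each ZsG-positive pDC 3672 to 10899 (median 6655.5), summing to 1894796 and 176964 UMIs. Other kept cells had medians of 5523.5 and 9965 UMIs, and conventional DCs 10769.5 and 15725. No pDC barcode of 1 library occurred in the other or in the T cell sort, although 6 barcodes were shared between the libraries of the CD45 sort over all cells.

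The label was checked against 6 other pDC genes (*Klk1*, *Ccr9*, *Ly6d*, *Cox6a2*, *Cd300c* and *Pacsin1*). At least 3 of the 6 were detected in 209 of the 211 ZsG-negative pDCs and in 19 of the 26 ZsG-positive pDCs, and 1 ZsG-positive member had none of them. The ZsG-positive group was thus less uniform. Of its 26 cells, 14 also had at least 3 UMIs summed over *Ncr1*, *Klrb1c*, *Cd79a*, *Ms4a1*, *Lyz2* and the 3 C1q genes, markers of other lineages, against 12 of the 211 ZsG-negative cells. The NK and B cell genes of that sum had 0 UMIs in ZsG-positive pDCs, so the 14 rest on *Lyz2* and the C1q genes. *Lyz2* was also higher in the ZsG-positive library at large. Cells without *Siglech* UMIs, within the CD3 and C1q limits, held 8994 CPM there and 2963 CPM in the ZsG-negative library. Without these 12 and 14 cells the shares were 4.24% and 0.291%, and with only the members holding 3 of the 6 genes they were 4.45% and 0.461%. Conversely, 22 of 4488 other ZsG-negative cells and 8 of 4097 other ZsG-positive cells had 3 or more of the 6 genes, most of them with 1 or 2 *Siglech* UMIs or kept out by the limits on CD3 and C1q.

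*Siglech* counts on both sides of the limit also differed between the gates. Among cells within the CD3 and C1q limits, 34 of the ZsG-negative library had 1 or 2 UMIs, 3 members had 3 or 4, and 208 members had 5 or more, so the limit fell in a gap. In the ZsG-positive library 17 such cells had 1 or 2 UMIs and 12 of the 26 members had 3 or 4. *Siglech*, a sialic acid-binding receptor that signals through DAP12, had a median of 16 UMIs per cell (range 3 to 43) in ZsG-negative members and 5 (3 to 22) in ZsG-positive members.

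Most ZsG-negative members carried the other genes that mark mouse pDCs. *Ly6d*, a GPI-anchored protein of lymphoid precursors and pDCs, had a median of 24 UMIs per cell and was seen in 95.7% of cells. *Ccr9*, the receptor for the chemokine CCL25, had a median of 10 UMIs (quartiles 6 and 19, highest 50) and was seen in 98.6%. *Klk1*, which encodes a kallikrein protease, was more uneven, with quartiles of 1 and 15.5, a median of 7 and a highest value of 126 UMIs. It was seen in 76.3% of ZsG-negative pDCs (58.8% after thinning every cell to 2000 UMIs), against 0.975% of T cells from the same library (0.366% thinned), at median depths of 8523 and 7205 UMIs. *Cox6a2*, a cytochrome c oxidase subunit otherwise known from heart and skeletal muscle, was seen in 85.3%. *Bst2*, which encodes the antigen of the PDCA-1 antibody, was present in every member at 14 to 68 UMIs in members of the negative gate and 8 to 39 in those of the positive gate. In ZsG-positive pDCs *Ccr9* was seen in 84.6%, *Ly6d* in 73.1%, *Klk1* in 42.3% and *Cox6a2* in 38.5% of cells.

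**Figure D2:**
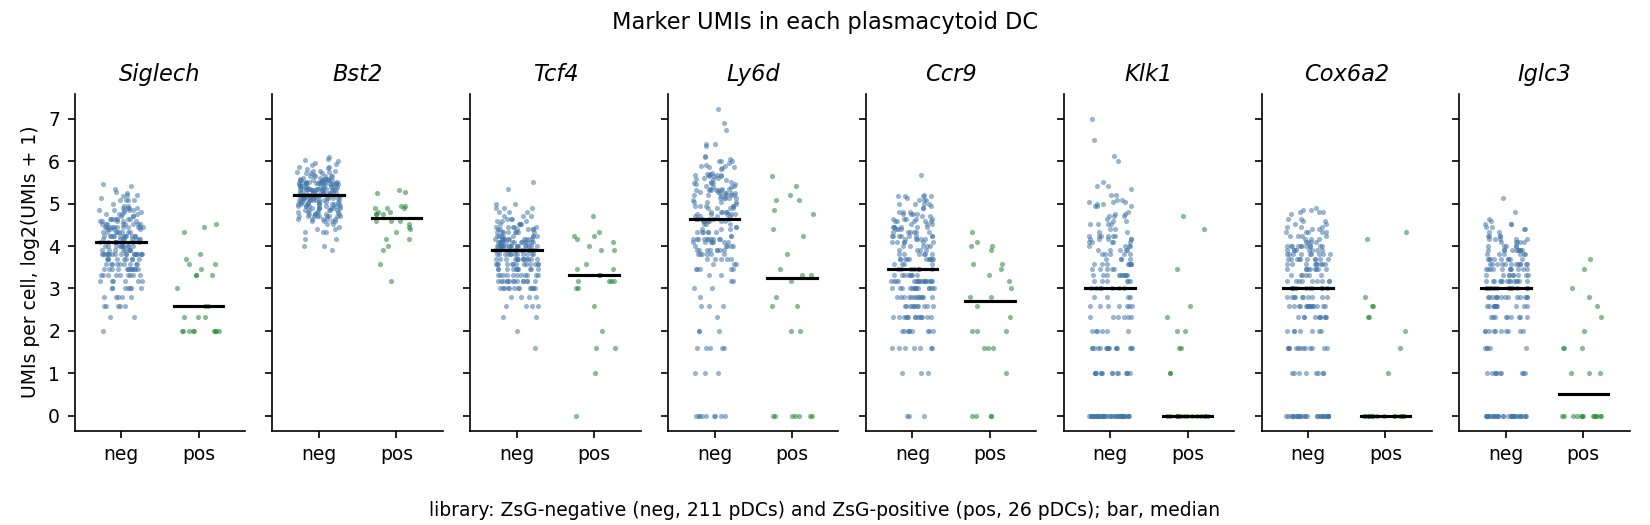
Each point is 1 pDC, and the vertical axis gives its UMIs of the named gene on a log2(UMIs + 1) scale for the ZsG-negative (neg, 211 cells) and ZsG-positive (pos, 26 cells) libraries; bars are medians. *Bst2* and *Tcf4* were present in all or nearly all members, while *Klk1*, *Cox6a2* and *Iglc3* had many cells at 0, above all among ZsG-positive members.

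For levels, the UMIs of a group's cells were added up and given as counts per 1000000 UMIs (CPM). *Siglech* stood at 1896 CPM in ZsG-negative and 1142 CPM in ZsG-positive pDCs, against 7.82 and 1.23 CPM in all other kept cells of the same libraries and, by definition, 0 in conventional DCs. *Ly6d* stood at 3124 and 2012 CPM in pDCs, 26.4 and 2.39 CPM in other cells and 0.891 and 1.71 CPM in conventional DCs. *Klk1* stood at 1204 and 429 CPM in pDCs, 3.68 and 0.497 CPM in other cells, and was carried by 1 UMI in ZsG-negative and none in ZsG-positive conventional DCs. pDCs were above every comparison group for each of these genes in both libraries, and ZsG-positive pDCs were below ZsG-negative pDCs.

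The promoters of 3 of these markers are shown because they hold an E-box form that E proteins such as TCF4 can bind. They are the 250 bases before the RefSeq start on GRCm38.p6, all on the plus strand, at chr7:55767934-55768183 for *Siglech*, chr7:44225110-44225359 for *Klk1* and chr9:123766961-123767210 for *Ccr9*; the last of these starts lies within the longer gene of the GENCODE annotation. Capitals mark CACCTG or its reverse complement CAGGTG, which begins 20 bases before the start in *Siglech*, 87 before it in *Klk1* and 85 before it in *Ccr9*.
Siglech: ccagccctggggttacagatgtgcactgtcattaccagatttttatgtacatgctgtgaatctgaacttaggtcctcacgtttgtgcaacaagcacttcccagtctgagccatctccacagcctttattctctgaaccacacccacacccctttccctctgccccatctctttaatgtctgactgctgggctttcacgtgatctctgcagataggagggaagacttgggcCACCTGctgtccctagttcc
Klk1: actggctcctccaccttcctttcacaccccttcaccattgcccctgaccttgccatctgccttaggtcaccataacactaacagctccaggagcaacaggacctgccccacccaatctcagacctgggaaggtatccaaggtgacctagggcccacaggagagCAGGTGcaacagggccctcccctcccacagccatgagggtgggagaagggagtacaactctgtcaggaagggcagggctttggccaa
Ccr9: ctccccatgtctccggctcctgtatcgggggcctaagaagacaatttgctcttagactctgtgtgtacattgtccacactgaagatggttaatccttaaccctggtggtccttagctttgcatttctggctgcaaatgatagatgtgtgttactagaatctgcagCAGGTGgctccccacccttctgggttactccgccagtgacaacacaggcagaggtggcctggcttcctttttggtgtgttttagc
Among the 15 genes with the largest ratio of pDCs to other cells, given next, 11 had a promoter entry (250 bases before to 50 after the start), and 8 of those 11 held CACCTG on either strand (72.7%), compared with 22.6% of 27025 genes. The 8 included the close paralogs *Klk1* and *Klk1b27*, and *Siglech*, which chose the cells. Counted by promoter entry, 9 of 15 held it, compared with 20.2% of 32851 entries. CAGCTG, another E-box form, was in 1 of the 11 (*Pgam2*) against 18.3% of genes, and GAGGAAG, an Ets form bound by SPIB and PU.1, in 1 (*Grm8*) against 15.4%. The 3 motifs do not overlap one another. The share with CACCTG was 38.6% (27 of 70) among the 100 genes with the largest ratio and 23.5% among all genes at least 2-fold higher in pDCs. It was 22.1% among all genes at least 2-fold lower and 20.1% among all genes tested. A match in these letters is a description and not a binding site.

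Among 12468 genes with at least 20 UMIs over both groups in the ZsG-negative library, 2116 (17.0%) were at least 2-fold higher in pDCs than in the other kept cells and 2775 (22.3%) at least 2-fold lower. For 1176 and 1014 of them the counting interval lay wholly beyond 2-fold. The largest log2 ratios among genes seen in at least 10% of pDCs belonged to *Grm8* (8.78), *Pnck*, *Chdh*, *Olfr164*, *Pgam2*, *Klk1* (8.35, 8.11 to 8.61), the antisense RNA gene *Gm14964*, *Klk1b27*, *Siglech* (7.92), *Smim6*, *Serpinh1*, *Ccr9* (7.81, 7.62 to 8.00), *Sh3bgr*, *Cdh5* and *Ptprf*. Beside the textbook markers, the set held genes best known from other tissues. *Pgam2*, the muscle form of phosphoglycerate mutase, had 347 UMIs in the 211 pDCs and 21 in the 4488 other cells (183 against 0.530 CPM). *Cdh5*, the VE-cadherin of endothelial junctions, had 198 against 20 UMIs (105 against 0.504 CPM), and *Grm8*, a metabotropic glutamate receptor, had 31 against 1. *Chdh*, the choline dehydrogenase of mitochondria, had 111 against 6 UMIs. *Klk1* and *Klk1b27* are close paralogs, as are the immunoglobulin lambda constant genes, so that reads could be split between copies.

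Of the 30 genes of a pDC marker list, 29 were at least 2-fold higher in pDCs than in the other ZsG-negative cells, with a median log2 ratio of 5.14 beside -0.04 over all genes tested. In the ZsG-positive library it was 28 of 28 tested (median 5.43, beside 0.39 over all genes), where the background was 32.3% higher and 15.6% lower. That 32.3% includes genes called higher at 0 UMIs in ZsG-positive pDCs, because the fraction of a UMI added to each sum weighs more in the smaller group. Of the 3976 genes called higher there, only 1220 had a counting interval wholly above equal levels. In the T cell sort, whose cells played no part in choosing the members, the same *Siglech* rule found 732 cells in which 29 of 30 were higher (median 4.88). Of the 100 genes with the largest ratio in ZsG-negative cells of the CD45 sort, 97 were tested in the T cell sort and 97 were at least 2-fold higher there, where the background was 14.4% of genes. In the ZsG-positive library 67 of the 100 could be tested and 65 were higher.

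Among 15 pDC transcription factors, 10 were higher (66.7%, beside 17.0% of all genes) and 2 lower (13.3%, beside 22.3%) in pDCs than in other ZsG-negative cells. *Tcf4* stood at 1594 CPM in ZsG-negative and 1492 CPM in ZsG-positive pDCs, against 49.8 and 61.6 CPM in other cells and 125 and 51.9 CPM in conventional DCs. *Spib*, an Ets factor of pDCs and B cells, stood at 317 and 198 CPM against 3.05 and 1.29 CPM. *Runx2*, known for its role in the exit of pDCs from bone marrow, stood at 584 and 610 CPM against 59.0 and 13.1 CPM. The log2 ratio of ZsG-positive to ZsG-negative pDCs was -0.09 for *Tcf4* (-0.28 to 0.09) and 0.07 for *Runx2* (-0.23 to 0.35), intervals that include 0, and -0.66 for *Spib* (-1.22 to -0.19). *Bcl11a* stood at 640 and 650 CPM in pDCs, 107 and 28.1 CPM in conventional DCs. *Irf8*, a factor of several myeloid lineages, stood at 3440 and 3108 CPM in pDCs and 948 and 868 CPM in conventional DCs. On the other side, *Id2* was at 37.5 and 28.3 CPM in pDCs and at 370 and 380 CPM in conventional DCs, and *Batf3*, a factor of cross-presenting DCs, had 1.58 and 0 CPM in pDCs and 111 and 117 CPM in conventional DCs. Against conventional DCs, 5 of the 15 factors were higher and 2 lower in the ZsG-negative library, where 19.4% of 8300 genes were higher and 11.2% lower, and 8 higher and 2 lower in the ZsG-positive library, where 20.6% were higher and 18.8% lower.

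Of 20 genes of endosomal nucleic acid sensing, 13 were higher and 1 lower in pDCs than in other ZsG-negative cells (median log2 ratio 2.02, background 17.0% higher). In the ZsG-positive library 6 were higher and 6 lower (30.0% each, median 0.51), where 32.3% of all genes were higher and 15.6% lower. That 32.3% includes genes called higher at 0 UMIs, so 30.0% beside it cannot show a lack of excess. Over conventional DCs it was 8 higher and 3 lower of 19 tested (ZsG-negative) and 6 higher and 5 lower of 19 (ZsG-positive). These are 42.1% and 15.8%, beside 19.4% and 11.2% of all genes, and 31.6% and 26.3%, beside 20.6% and 18.8%. *Tlr7*, the receptor for single-stranded RNA, stood at 157 CPM in ZsG-negative pDCs (140 to 176) and 107 CPM in ZsG-positive pDCs (64.6 to 168), with 1 UMI in ZsG-negative conventional DCs and 10.5 CPM in ZsG-positive ones. It was seen in 66.8% of ZsG-negative pDCs and 1.65% of T cells (30.3% and 0.549% after thinning to 2000 UMIs). *Tlr9*, the receptor for CpG DNA, was near the limit of detection, with 13 UMIs in 211 ZsG-negative pDCs (6.86 CPM, 3.65 to 11.7) and 1 UMI in ZsG-positive pDCs. Partners of these receptors were well represented. *Unc93b1*, which carries them to endosomes, stood at 507 and 542 CPM in pDCs and 212 and 276 CPM in conventional DCs. *Pld4*, a nuclease that trims their ligands, stood at 976 and 842 CPM in pDCs and 192 and 277 CPM in conventional DCs. *Ctsl*, a lysosomal protease that can cleave the receptors, stood at 1813 and 1113 CPM in pDCs and 20.5 and 185 CPM in conventional DCs. *Slc15a4*, a transporter needed for their signal in pDCs, stood at 94.5 and 84.8 CPM against 26.7 and 32.6 CPM. Without the members holding other-lineage UMIs its log2 ratio over conventional DCs was 0.0027 in the ZsG-positive library. Of 15 sensors outside this group, 6 were lower than in other ZsG-negative cells (40.0%, beside 22.3% of all genes) and only *Tlr12* was higher (6.67%, beside 17.0%), at 52.8 and 39.6 CPM in pDCs against 3.18 and 3.68 CPM in other cells.

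Transcripts of the interferons themselves were almost absent. The 20 type I and III interferon genes gave 4 UMIs in the 211 ZsG-negative pDCs (2 of *Ifna2* and 2 of *Ifnb1*) and 1 UMI (*Ifnz*) in the 26 ZsG-positive pDCs. Both chains of the type I interferon receptor were higher in pDCs than in conventional DCs of both libraries. *Ifnar1* stood at 234 and 418 CPM in pDCs and 48.1 and 64.6 CPM in conventional DCs, and *Ifnar2* at 420 and 514 CPM against 121 and 150 CPM. *Ifngr1*, a chain of the interferon gamma receptor, was at 51.2 and 28.3 CPM in pDCs and 286 and 109 CPM in conventional DCs. *Lair1*, an inhibitory collagen receptor of pDCs, stood at 728 and 622 CPM in pDCs against 25.8 and 96.9 CPM. Of 33 interferon response genes, 13 were higher (39.4%, beside 17.0% of all genes) and 8 lower (24.2%, beside 22.3%) than in other ZsG-negative cells. Over other ZsG-positive cells 2 were higher and 17 lower (6.06% and 51.5%, beside 32.3% and 15.6%). Since that 32.3% includes genes called higher at 0 UMIs, 6.06% beside it cannot show a deficit of higher genes. Against conventional DCs, 2 of 30 genes of the interferon response were higher and 13 lower in the ZsG-negative library, and 2 of 33 higher and 13 lower in the ZsG-positive library. The lower ones were 43.3% and 39.4%, beside 11.2% and 18.8% of all genes, and the higher ones 6.67% and 6.06%, beside 19.4% and 20.6%. *Isg15*, a ubiquitin-like protein induced by interferon, had 328 CPM in ZsG-negative pDCs and 574 CPM in conventional DCs (log2 ratio -0.81, -0.97 to -0.65). *Cxcl10*, a chemokine of the same response, had 44.3 CPM against 2026 CPM (log2 ratio -5.51).

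Of 38 genes of the secretory pathway and its stress response, 16 were at least 2-fold higher in pDCs than in other ZsG-negative cells (42.1%, beside 17.0% of all genes) and none was lower (beside 22.3%), with a median log2 ratio of 0.91. Against conventional DCs it was 15 higher and 0 lower in the ZsG-negative and 11 higher and 2 lower of 38 in the ZsG-positive library (39.5% and 28.9% higher, beside 19.4% and 20.6% of all genes). Over other ZsG-positive cells 12 of 39 were higher (30.8%, beside 32.3% of all genes) and 1 lower. Since the 32.3% includes genes called higher at 0 UMIs, it cannot show that this list was at background. *Xbp1*, the transcription factor that enlarges the secretory apparatus, stood at 499 and 418 CPM in pDCs and 140 and 168 CPM in conventional DCs. *Mzb1*, an endoplasmic reticulum chaperone cofactor known from plasma cells and B cells, stood at 288 and 175 CPM in pDCs against 1.78 and 0.171 CPM. *Herpud1* and *Edem2*, both of protein quality control, were at 361 and 180 CPM in ZsG-negative pDCs and at 142 and 27.6 CPM in conventional DCs. None of the 38 genes differed 2-fold between pDCs of both gates. The count of 16 was 8 with the 5% mitochondrial limit and 10 with totals that leave out mitochondrial and ribosomal genes. The latter totals shifted the median of all genes by -0.13 on the log2 scale in the ZsG-negative and by 0.12 in the ZsG-positive library.

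Of 14 MHC class II pathway genes tested over other ZsG-negative cells, most of which were T and NK cells, 13 were higher in pDCs and 1 lower. These are 92.9% and 7.14%, beside 17.0% and 22.3% of all genes. *Cd74* and *H2-Aa* lay between their levels in conventional DCs and in the other cells. *Cd74*, the invariant chain, stood at 3057 CPM in ZsG-negative pDCs, 11783 CPM in conventional DCs and 627 CPM in all other cells. *H2-Aa*, a class II alpha chain, stood at 1119 CPM in ZsG-negative pDCs, 5747 CPM in conventional DCs and 268 CPM in other cells. *H2-Aa* was uneven among pDCs, with quartiles of 0 and 17 UMIs per cell, a highest value of 70 and detection in 70.1% of cells, against a median of 73.5 UMIs in conventional DCs. Of 14 genes of the class II pathway tested against conventional DCs, 10 were lower in each library (71.4%, beside 11.2% and 18.8% of all genes), while 1 was higher in the ZsG-negative library. *Ciita*, the factor that switches the class II genes on, stood at 26.4 CPM in ZsG-negative pDCs and 201 CPM in conventional DCs. *H2-Oa*, part of a complex that restrains class II loading, stood at 132 and 68.6 CPM (log2 ratio 0.94, 0.57 to 1.33). *Cd86* and *Cd83*, surface proteins of mature DCs, stood at 14.2 and 19.5 CPM in ZsG-negative pDCs and 166 and 419 CPM in conventional DCs. Of 13 costimulatory and checkpoint ligand genes tested there, 8 were lower (61.5%, beside 11.2% of all genes) and 2 higher (15.4%, beside 19.4%).

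Of 16 chemokine genes, 13 were lower in pDCs than in other ZsG-negative cells (81.2%, beside 22.3% of all genes) and 1 was higher. The exception was *Ccl4*, a chemokine of inflamed tissue, at 2361 CPM in ZsG-negative and 1690 CPM in ZsG-positive pDCs, against 614 and 685 CPM in conventional DCs. With the 5% mitochondrial limit its log2 ratio over conventional DCs was 0.0082 in the ZsG-positive library. *Cxcl9*, a ligand of CXCR3, stood at 13.7 and 39.6 CPM in pDCs and 1186 and 1664 CPM in conventional DCs. Of 18 cytokine genes 12 were lower (66.7%, beside 22.3%) and 2 higher (11.1%, beside 17.0%). *Il12a*, a subunit of interleukin 12, was one of the latter, at 15 UMIs (7.92 CPM against 0.252 CPM in other cells). *Ccr2*, a chemokine receptor that recruits monocytes, stood at 112 and 73.5 CPM in pDCs and 563 and 410 CPM in conventional DCs.

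Genes of lymphoid development were carried by pDCs in both libraries. Of 27 tested in the ZsG-negative library 16 were higher (59.3%, beside 17.0% of all genes) and 7 lower (25.9%, beside 22.3%) than in other cells, most of which were T and NK cells there. Against conventional DCs, 15 of 20 were higher and 2 lower in the ZsG-negative and 13 of 17 higher and 1 lower in the ZsG-positive library, with median log2 ratios of 2.85 and 3.59. The higher ones were 75% and 76.5%, beside 19.4% and 20.6% of all genes, and the lower ones 10.0% and 5.88%, beside 11.2% and 18.8%. *Dntt*, the enzyme that adds bases at recombining antigen receptor genes, had 139 UMIs in ZsG-negative pDCs (73.4 CPM, 61.7 to 86.6) and 0 in 90 conventional DCs, at least a 27.5-fold difference against a floor of 3 UMIs over the group. *Iglc3*, a light chain constant gene, stood at 891 and 316 CPM in pDCs. *Ighm*, the mu heavy chain, stood at 831 and 610 CPM in pDCs against 166 and 97.0 CPM in conventional DCs. *Cd4* stood at 131 and 102 CPM in pDCs against 8.02 and 1.03 CPM. *Cd79a*, a signaling chain of the B cell receptor, had 10 UMIs in ZsG-negative pDCs, all of them in 1 cell, and 0 in ZsG-positive pDCs. Cell cycle genes were low, 20 of 20 being lower than in other ZsG-negative cells, where 22.3% of all genes were lower. *Mki67*, a marker of dividing cells, was seen in 1.90% of ZsG-negative pDCs and 28.6% of T cells (0% and 12.3% after thinning).

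Beside *Siglech*, the genes with the largest ratios over conventional DCs in the ZsG-negative library that also passed 2-fold in the ZsG-positive library were *Ly6d* (log2 ratio 11.19, resting on 1 conventional DC UMI), *Cox6a2* (at least 367-fold), *Iglc3* (at least 333-fold), *Klk1*, *Fcrla* (372 CPM, at least 139-fold), *Ccr9*, *Atp2a1* (171 CPM, at least 64.0-fold), *Hvcn1* (158 CPM, at least 59.0-fold) and *Sema4b* (93.4 CPM, at least 35.0-fold). Folds given as at least were taken against 3 UMIs in the group at 0 and leave out the counting error of the other group. *Fcrla* encodes an intracellular Fc receptor-like protein of B cells, *Atp2a1* the calcium pump of fast muscle and *Hvcn1* a voltage-gated proton channel. At the other end, 0 UMIs were counted in ZsG-negative pDCs for *Clec4b1* (60 in conventional DCs, at least 33.8-fold lower), *Xcr1*, *Gatm*, *Emp1*, *Cd302*, *Mrc1*, *Tspan33* and *Htr7*; *Xcr1* was used to choose the conventional DCs. *Eps8* had 2 against 135 UMIs and *Cxcl9* 26 against 1332. Of 19 conventional DC marker genes tested in the ZsG-negative library, 11 were lower in pDCs and 3 higher (57.9% and 15.8%, beside 11.2% and 19.4% of all genes). In the ZsG-positive library 18 of 25 were lower and 2 higher (72% and 8%, beside 18.8% and 20.6%). The rule for conventional DCs asked for *Xcr1*, *Clec9a* or *Cd209a*, so any of these among the counts were favored by it. *Cd209a* stood at 24.8 CPM in ZsG-negative pDCs and 705 CPM in conventional DCs. Some genes often used for conventional DCs were nevertheless present in pDCs. *Flt3*, the receptor for a DC growth factor, stood at 66.0 and 90.4 CPM in pDCs and 73.9 and 27.6 CPM in conventional DCs. *Clec9a* stood at 72.3 and 79.1 CPM against 76.6 and 83.0 CPM, although it also helped choose the conventional DCs. In the ZsG-negative library both genes stood near their level in conventional DCs, but in the ZsG-positive library only *Clec9a* did. The ratios moved under thinning and with other reference cells. Thinning also changed the cells chosen, leaving 152 and 11 pDCs and 29 and 71 conventional DCs. After thinning the ZsG-negative log2 ratios were -1.17 for *Flt3* and -1.001 for *Clec9a*, and the ZsG-positive one of *Clec9a* was -1.66, while with conventional DCs chosen by *Xcr1* and *Clec9a* alone the ZsG-negative ratio of *Clec9a* was -1.39. Of the 7978 genes tested in both libraries, 1366 were higher in the ZsG-negative and 1709 in the ZsG-positive library. The 843 higher in both were 61.7% of the former and 49.3% of the latter, and 58 of the former were at least 2-fold lower in the ZsG-positive library.

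**Figure D3:**
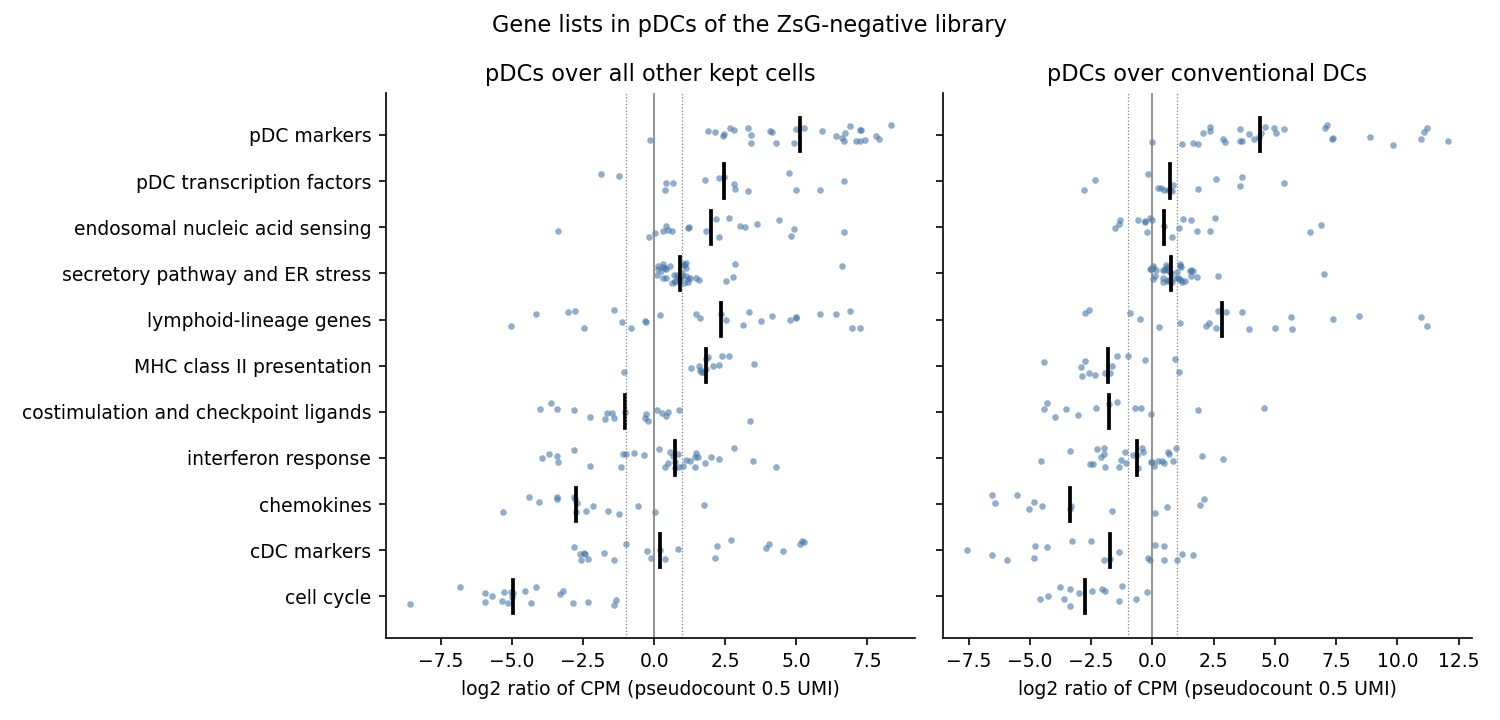
Each point is a gene of the list named at the left, the horizontal axis gives its log2 ratio of CPM (0.5 UMI added to each sum) in ZsG-negative pDCs over all other kept cells or over conventional DCs, and black bars are list medians; dotted lines mark 2-fold. The pDC marker, lymphoid-lineage and secretory lists have medians above 0 on both sides, while the MHC class II list has a median of 1.83 over other cells and -1.83 over conventional DCs.

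Within pDCs, several genes differed with the *Siglech* count of the cell, a grouping made by the gene that chose the members and so given without a test. In the 732 pDCs of the T cell sort, members with 3 to 4, 5 to 9, 10 to 19 and 20 or more *Siglech* UMIs (20, 111, 331 and 270 cells) had 237, 584, 1356 and 1674 CPM of *Cox6a2*. *Ly6c2*, a surface antigen of pDCs and monocytes, ran the other way, at 7362, 5943, 4246 and 3221 CPM. *Ifitm3*, an antiviral membrane protein, ran from 1398 through 742 and 297 to 177 CPM, and *Kdr*, a receptor for vascular endothelial growth factor, from 364 through 202 and 127 to 98.9 CPM. In that sort cells with less *Siglech* thus held more *Ly6c2*, *Ifitm3* and *Kdr* and less *Cox6a2*. Their median mitochondrial share was lower too, at 4.07, 5.57, 6.39 and 6.62% over the 4 classes. In ZsG-negative pDCs of the CD45 sort the 3 upper classes (32, 107 and 69 cells) had 5036, 3543 and 3292 CPM of *Ly6c2*, 605, 274 and 93.4 CPM of *Ifitm3* and 619, 1015 and 1073 CPM of *Cox6a2*, in the same order. *Kdr* did not keep that order there, at 128, 68.5 and 75.3 CPM, and the lowest class, with only 3 cells, lay outside the order, at 4185 CPM of *Ly6c2*, 89.0 of *Ifitm3*, 1425 of *Cox6a2* and 0 of *Kdr*. The 4 classes of ZsG-positive pDCs (12, 6, 6 and 2 cells) had 5723, 7146, 5258 and 3287 CPM of *Ly6c2* and 227, 147, 917 and 548 CPM of *Cox6a2*, with no steady order for these genes. Their *Kdr* was lower in each higher class, at 329, 245, 80.9 and 0 CPM, and their *Ifitm3* was 795, 979, 243 and 183 CPM. *Bst2* stayed between 3884 and 4452 CPM over the 4 ZsG-negative classes. The 3 upper ZsG-negative classes also differed in NK cell and ILC markers (1020, 258 and 306 CPM in sum) and in *Ccl5* (550, 172 and 70.8 CPM). *Ifitm3* stood at 1703 CPM in the 12 ZsG-negative members with at least 3 other-lineage UMIs and at 119 CPM in the other 199. ZsG-negative pDCs under 5% mitochondrial UMIs had 928 CPM of *Ifitm3*, 4534 of *Ly6c2* and 580 of *Cox6a2*. The others had 106, 3497 and 1071 CPM.

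**Figure D4:**
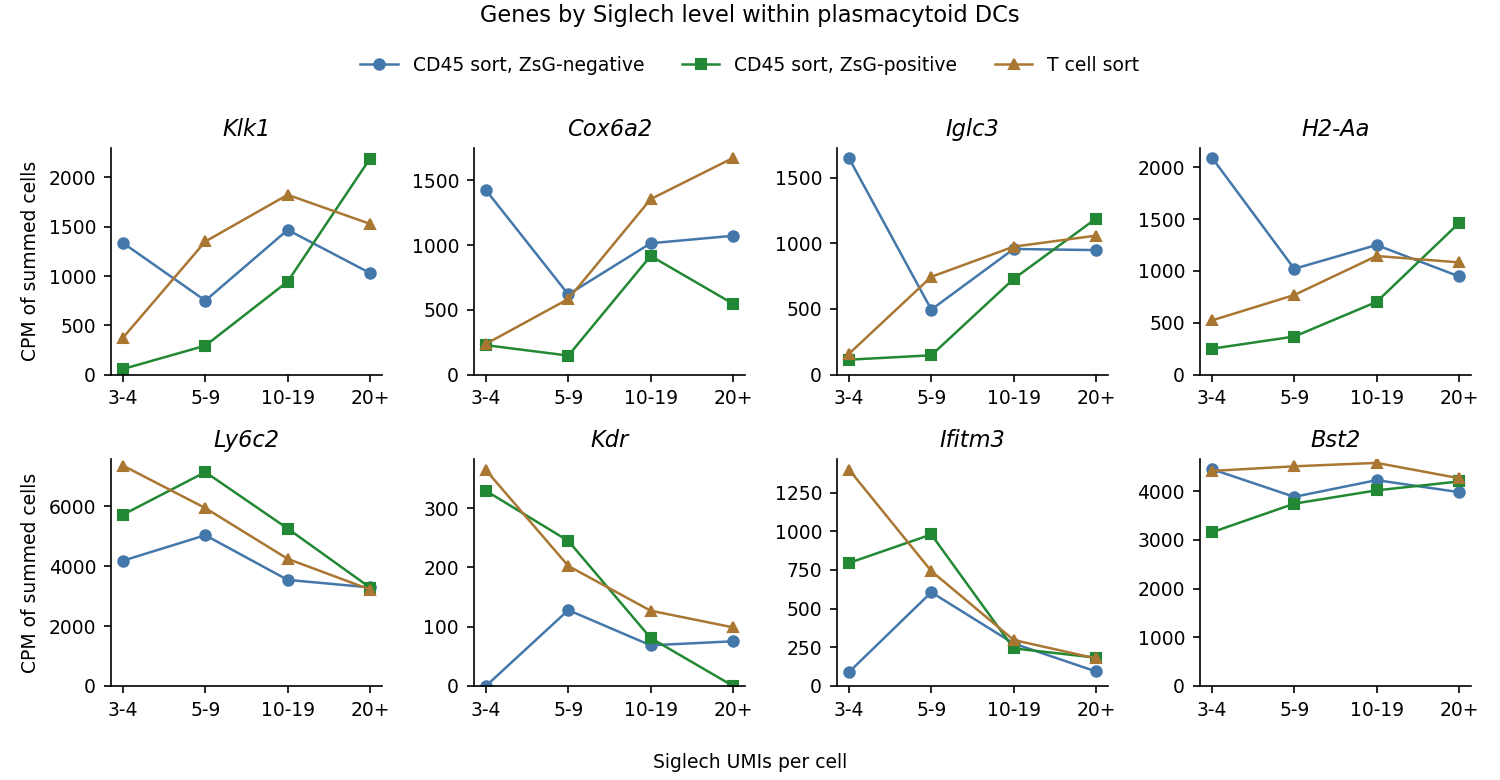
CPM of 8 genes (vertical axes, each from 0) in pDCs grouped by their *Siglech* UMIs (horizontal axis) in the 3 sets of cells; the ZsG-negative point at 3-4 rests on 3 cells and the ZsG-positive point at 20+ on 2 cells. *Ly6c2*, *Kdr* and *Ifitm3* were lower and *Cox6a2* higher in the upper classes of the T cell sort, where *Ly6c2* ran from 7362 to 3221 CPM.

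Between the gates, pDCs differed by at least 2-fold in 438 of 7357 genes (5.95%) that were higher and 663 (9.01%) that were lower in the ZsG-positive library, but with 26 cells on 1 side the counting interval lay wholly beyond 2-fold for only 18 and 11 of them. The 26 ZsG-positive cells held the less typical members described above. Of the 30 pDC markers, 3 were at least 2-fold lower in ZsG-positive pDCs (10.0%, near the 9.01% of all genes) and 1, *Cd209d*, was higher (299 against 112 CPM). The lower ones were *Klk1* (429 against 1204 CPM, log2 ratio -1.48, -1.84 to -1.16), *Cox6a2* (373 against 980 CPM, -1.38) and *Iglc3* (316 against 891 CPM, -1.48). *H2-Aa* was also lower, at 446 against 1119 CPM (-1.32), but its log2 ratio was -0.037 with members chosen at 2 or more *Siglech* UMIs and 0.088 after thinning every cell to 2000 UMIs. Among members with at least 5 *Siglech* UMIs in each gate the levels lay closer together, at 799 against 1202 CPM for *Klk1*, 517 against 974 CPM for *Cox6a2* and 641 against 1107 CPM for *H2-Aa*. None of these genes, nor *Iglc3*, was then 2-fold lower, and *Cd209d* was no longer higher (log2 ratio -0.087), so these differences moved with the *Siglech* level of the cells compared. They moved with the mitochondrial share too: the 16 ZsG-positive pDCs under 5% had 83.1 CPM of *Klk1* and the other 10 had 1166 CPM, while ZsG-negative pDCs had 996 and 1252 CPM.

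The genes with the largest log2 ratios toward the ZsG-positive gate were *Ccl2*, a monocyte-attracting chemokine (141 against 4.75 CPM, 4.84, 3.75 to 6.18), *Cyp7b1* (3.42), *Socs2* (3.36), *Fcgrt*, the neonatal Fc receptor (390 against 40.6 CPM, 3.26), and *Mmp14* (3.14). *Ccl2* was seen in 65.4% of ZsG-positive and 2.37% of ZsG-negative pDCs. Other cells of the ZsG-positive library, where 42.6% had at least 10 C1q UMIs against 0.106% in the ZsG-negative library, held *Ccl2* at 2499 CPM. Of the 18 genes beyond 2-fold in their interval, 15 were also at least 2-fold higher in the other ZsG-positive cells than in the other ZsG-negative cells (beside 11.6% of the 7357 genes), among them *Lgals3* (712 against 216 CPM in pDCs), *Ifitm3* (684 against 259 CPM), *Ms4a6c* (339 against 102 CPM) and *Apod* (401 against 73.9 CPM). With the 5% mitochondrial limit none of these 4 was 2-fold higher in ZsG-positive pDCs, their log2 ratios being 0.45, -0.20, 0.71 and 0.88. The exceptions were *Socs2*, *Klrk1* and *1500009L16Rik*, and all 33 ZsG-positive UMIs of *Hspb1* came from 1 cell. The levels behind these ratios differed. In the other ZsG-positive cells *Lgals3*, *Ifitm3* and *Ms4a6c* stood at 3424, 3433 and 1022 CPM, above ZsG-positive pDCs. *Apod* and *Fcgrt* stood at 7.74 and 52.95 CPM in those cells, below ZsG-positive pDCs. At the lower end *Ccl5* had 1 UMI in ZsG-positive pDCs and 364 in ZsG-negative pDCs, and *Gzma* 0 and 240, both being genes of NK cells and T cells, which were 44.0% and 34.9% of the ZsG-negative and 2.86% and 9.24% of the ZsG-positive library. *Dst*, *Zfp945*, *Mettl4* and *Impact* had 0 UMIs in ZsG-positive pDCs, at least 2.02-, 1.96-, 1.90- and 1.87-fold lower against the floor of 3 UMIs. Of the 11 genes whose interval lay wholly beyond 2-fold lower, 8 were also at least 2-fold lower in the other ZsG-positive cells (beside 12.1% of the 7357 genes) and 3 were at least 2-fold higher there. The 8 included *Klk1*, *Cox6a2* and *Iglc3*, which were low in other cells. They stood at 3.68, 9.23 and 5.88 CPM in the other ZsG-negative and 0.50, 1.79 and 0.358 CPM in the other ZsG-positive cells. *Gzma* and *Ccl5*, also among the 8, stood at 2313 and 3232 CPM and at 68.3 and 478 CPM. The 3 that were higher there, named after their values were seen, were *Clec12a*, *Calhm6* and *H2-Aa*. *Clec12a*, an inhibitory C-type lectin of myeloid cells, was seen in 69.7% of ZsG-negative and 7.69% of ZsG-positive pDCs (192 against 17.0 CPM, on 363 and 3 UMIs; log2 ratio -3.28, -5.78 to -1.94), and stood at 14.4 and 309 CPM in the other cells. *Calhm6* stood at 54.4 CPM in ZsG-negative pDCs and had 0 UMIs in ZsG-positive pDCs, at least 3.21-fold lower against the same floor, and stood at 62.9 and 297 CPM in the other cells. *Lyz2*, a lysozyme of monocytes and macrophages, was seen in 73.1% of ZsG-positive pDCs with at most 4 UMIs, and in 90.8% of ZsG-positive T cells (50% and 68.0% thinned, median depths 6655.5 and 14679). A list of 14 macrophage markers summed to 605 CPM in ZsG-positive and 356 CPM in ZsG-negative pDCs, with *Cd68* the most abundant (215 and 273 CPM) and *Apoe* next (153 and 59.1 CPM). Its 6 more specific members *C1qa*, *C1qb*, *C1qc*, *Ms4a7*, *Apoe* and *Adgre1* summed to 322 CPM (244 to 417) and 62.8 CPM, with *Ms4a7* at 0 in both. The C1q genes among them were limited by the rule that chose the cells, while *Apoe*, given above, and *Adgre1* (5.65 and 2.11 CPM, on 1 and 4 UMIs) were not. A list of 12 monocyte markers summed to 13234 CPM in ZsG-positive and 9771.5 CPM in ZsG-negative pDCs, with 2 of 7 tested lower and none higher. The 6 monocyte markers *Lyz2*, *Ccr2*, *Vcan*, *Chil3*, *Ace* and *Treml4* ran the other way, at 299 and 623 CPM, *Lyz2* giving 226 and 472 CPM. That direction rested on few cells: of 1180 monocyte UMIs in ZsG-negative pDCs 329 were in 1 cell, and *Lyz2* stood at 5162 CPM in the 12 with at least 3 other-lineage UMIs, a sum that includes *Lyz2*, and at 17.9 CPM in the other 199. Without such members in both gates the log2 ratio of *Lyz2* was 2.61 in place of -1.05, and after thinning it was 1.77. A list of 12 NK and ILC markers summed to 271 and 389 CPM, and of 9 tested 8 were lower (88.9%, beside 9.01% of all genes) and 1, *Klrk1*, higher (260 against 79.2 CPM, log2 ratio 1.73). In ZsG-positive pDCs *Klrk1* gave 260 of the 271 CPM, so that sum was mostly this gene. Without members with at least 3 other-lineage UMIs, a sum that includes *Ncr1* and *Klrb1c*, the list summed to 262 and 192 CPM. That is the reverse direction for the sum, which does not speak for each gene of the list. *Ccl5* then stood at 63.1 CPM and *Gzma* at 52.1 CPM in ZsG-negative pDCs, in place of 192 and 127 CPM. With at least 5 *Siglech* UMIs the ratio of *Klrk1* was 0.70, with pDCs chosen by other markers 0.93 and with 3 of the 6 other pDC genes 0.75, so that it was then not 2-fold higher. Its members *Ncr1*, *Klrb1c*, *Klre1*, *Eomes* and *Prf1* summed to 0 and 72.3 CPM. The part of free RNA and of joined cells in these differences was not tested.

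**Figure D5:**
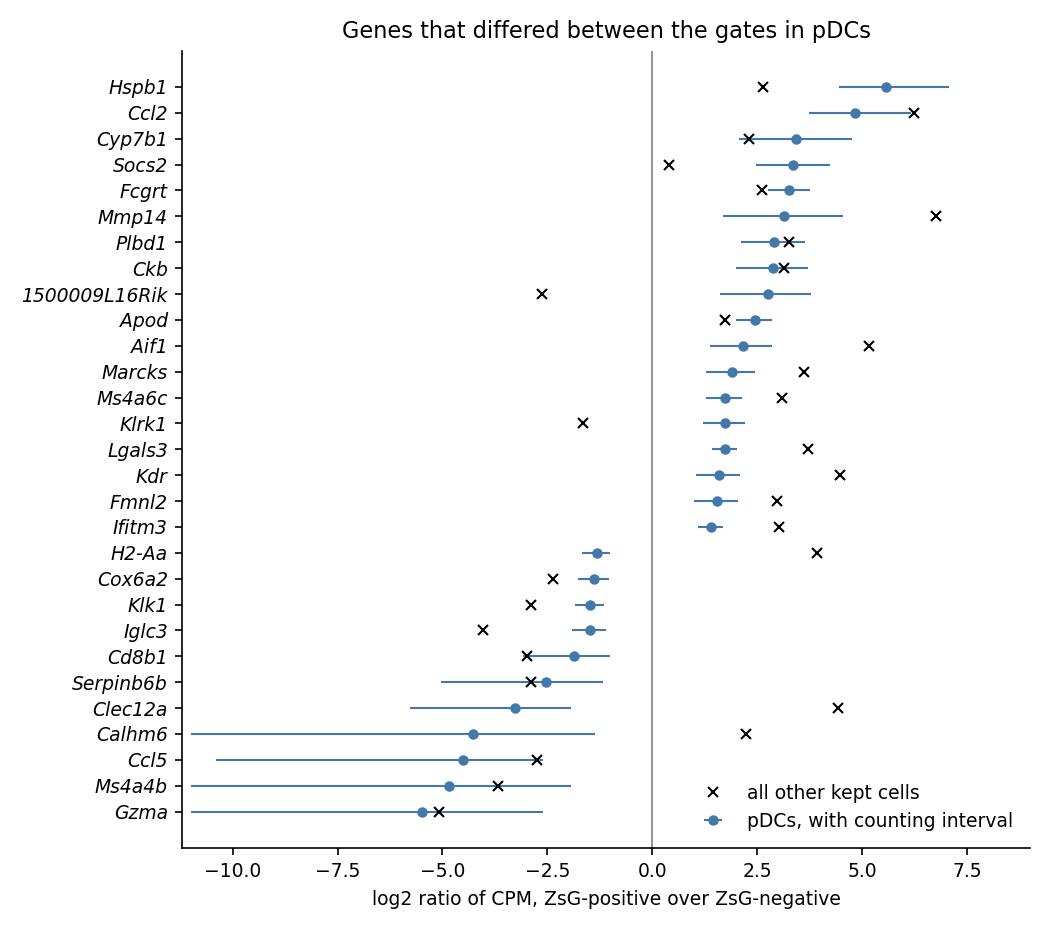
Points give the log2 ratio of CPM in ZsG-positive over ZsG-negative pDCs, with exact counting intervals, for the 29 genes whose interval lay wholly beyond 2-fold; crosses give the same ratio in all other kept cells. For *Calhm6*, *Ms4a4b* and *Gzma*, with 0 UMIs in ZsG-positive pDCs, the interval has no lower end and is drawn to the axis limit. 15 of the 18 genes to the right of 0 have their cross at least 2-fold to the right, and 8 of the 11 to the left have theirs at least 2-fold to the left; those of *Clec12a*, *Calhm6* and *H2-Aa* lie on the opposite side.

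Transcripts of the melanoma cells were looked for with 5 pigment genes (*Pmel*, *Mlana*, *Dct*, *Tyr* and *Tyrp1*). None gave a UMI in pDCs of either gate of the CD45 sort. The limit at 3 UMIs stood at 1.58 CPM in ZsG-negative and 17.0 CPM in ZsG-positive pDCs, while the intervals reached up to 1.95 and 20.8 CPM. ZsG-negative conventional DCs had none either (limit 2.67 CPM), and ZsG-negative T and NK cells had 0.417 and 0.319 CPM, both under the limit for ZsG-negative pDCs. ZsG-positive conventional DCs had 20.4 CPM (16.9 to 24.4), but 55 of their 119 UMIs came from 1 cell, and without it the level was 11.02 CPM (8.49 to 14.1), under the limit for ZsG-positive pDCs. The ZsG-positive cells with at least 10 C1q UMIs had 26.2 CPM. In pDCs of the T cell sort 25 of 732 cells gave 27 pigment UMIs (4.28 CPM, 2.82 to 6.22), against 62.0 CPM in the other cells of that sort, 236 of whose 1222 UMIs came from 1 cell. Over all 15 melanocyte genes ZsG-negative pDCs had 41 UMIs (21.6 CPM, 15.5 to 29.4) and ZsG-positive pDCs 5 UMIs (28.3 CPM, 9.17 to 65.9), with overlapping intervals; these UMIs came from *Mitf*, *Slc24a5*, *Ptgds* and *Kit*, genes that other cells use as well.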

How the data were processed

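Single-cell libraries were made with the 10x Genomics 3' v3.1 kit. The deposited values are raw UMI counts for each gene in each barcode, which the authors made by aligning reads to mm10 with Cell Ranger (6.1.2 in the submitters' processing notes, 7.0.0 in the header of the CD45 matrix) and merging the libraries of a sort with aggr; the sources used here do not say whether that step evened out depth. The matrices list 32285 (CD45 sort) and 31053 (T cell sort) genes. Barcode suffixes, deposited as part of each cell name, gave the library; in the T cell sort the sources disagree on which suffix was which gate, and both were pooled. Counts were summed over the cells of a group and scaled to CPM. The tools were numpy 2.4.6, pandas 2.3.3, scipy 1.17.1 and matplotlib 3.10.9 under Python 3.11.15. Ratios were read for genes with at least 20 UMIs over both groups, with 0.5 UMI added to each sum, and 2-fold was the limit for calling a gene higher or lower. No p-value was computed, since each gate was 1 library. For a gene at 0 UMIs the fold was taken against 3 UMIs over the group, leaving out the counting error of the other group. The other classes were counted by fixed UMI limits on the genes of T, NK, B and C1q-positive cells. No doublet caller was run; members with UMIs of other lineages were counted and left out as an alternative. Named genes were the 15 largest ratios over other cells (UMI in at least 10% of pDCs), the 10 largest and 10 smallest over conventional DCs past 2-fold in both libraries, the 5 largest and 5 smallest between gates (UMI in at least 20% of the higher group, no single cell giving most of its UMIs) and members of 34 gene lists; genes named for their counting interval and the genes plotted by *Siglech* class were picked after their values were seen. The members and lists were chosen with earlier results of these data known. Promoters came from RefSeq (GRCm38.p6) and gene positions from GENCODE vM21. Scripts were tested on simulated data. Some genes of the lists are not reported here.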

Additional observations from a re-analysis of the deposited data

Results flagged for a closer look

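The T cell sort, labeled CD45+ TCRb+, also held cells that met the pDC rule: 732 of 2694 kept cells (27.17%, 25.5 to 28.9%), or 34.2% and 13.4% in its barcode groups 1 and 2. All 16 pDC markers were detected in them, but 1 of the 16, *Siglech*, was set by the rule. *Bst2* was the most abundant at 4446 CPM, and the median depth of these cells was 8364.5 UMIs. The 5 T cell markers *Cd3d*, *Cd3e*, *Cd3g*, *Trac* and *Trbc2* summed to 67 UMIs over these cells (10.6 CPM), but the 3 CD3 genes had been limited by the rule itself; *Trbc2*, which the rule did not use, stood at 3.64 CPM. How they entered the gate was not tested.

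The same cells gave 141 UMIs of type I and III interferon genes in 26 cells (22.3 CPM, 18.8 to 26.3, against 1.52 CPM in the other cells), 88 of them from 1 cell. *Ifnb1* and *Ifnl2* gave 53 each, *Ifna2* 26 and *Ifnl3* 9. In the CD45 sort pDCs gave 5 in all.

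For 3 gene lists with at least 10 genes tested in each library, the median log2 ratio of pDCs over other kept cells had opposite signs in the 2 gates and a size of at least 0.5 in both: the interferon response (0.72 ZsG-negative, -1.30 ZsG-positive), MHC class II presentation (1.83 and -2.08) and the lysosome (1.79 and -0.73). The median of cDC markers (0.22 and -1.25) and of growth factor receptors (0.68 and -0.47) also changed sign, as did 3 lists with fewer genes tested and the median of all genes (-0.04 and 0.39). The difference between the gates was not tested. The reference cells differed, since cells with at least 10 C1q UMIs made up 0.106% of the negative and 42.6% of the positive library: *Cd74* stood at 627 and 8692 CPM in them and at 3057 and 2000 CPM in pDCs. Over conventional DCs the MHC class II medians were -1.83 and -2.56 and those of the interferon response -0.61 and -0.66, while those of the lysosome kept opposite signs, at 0.62 and -0.45. The conventional DCs also differed between the gates, with macrophage markers summing to 617 CPM in ZsG-negative and 5543 CPM in ZsG-positive ones.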

How the results depend on the processing

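Of 295 shares and counts of genes recomputed under 14 alternatives, 255 stayed within the interval of a share or within 1.5 times a count and 40 moved further. The genes named for the largest ratios stayed on the same side of 2-fold in 416 of 416 repeats, and the other genes compared above in 1146 of 1217. Of the 71 that changed side, 35 (of 178) belonged to the comparison between gates and 28 (of 448) to conventional DCs of the ZsG-positive library. Between gates 6 log2 ratios turned sign: *Cd209d* with at least 5 *Siglech* UMIs (-0.087) and after thinning (-0.60), *Ifitm3* with the 5% mitochondrial limit (-0.20), *H2-Aa* after thinning (0.088), and *Lyz2* after thinning (1.77) and without members holding UMIs of other lineages (2.61). The share of pDCs among both DC classes was 4.11% (ZsG-positive) with at least 5 *Siglech* UMIs, 29.5% (ZsG-negative) with the 5% limit, 84.0% and 13.4% after thinning and 3.54% (ZsG-positive) without members holding UMIs of other lineages. With conventional DCs chosen by *Xcr1* and *Clec9a* alone it was 88.3% and 12.0%, and with the CD3 and C1q limits for them 11.7% (ZsG-positive). With at least 5 *Siglech* UMIs the ZsG-positive share was 0.340% and its log2 ratio to the ZsG-negative share -3.70, and 714 genes were higher in ZsG-positive pDCs. With the 5% mitochondrial limit the ZsG-negative share was 1.005%, the log2 ratio -1.22, the secretory genes higher 8, the genes higher than in ZsG-negative conventional DCs 943, and those higher and lower between gates 114 and 271. After thinning to 2000 UMIs the shares were 3.24% and 0.267% (log2 ratio -3.60). The genes lower than in other ZsG-positive cells were then 905, those higher and lower than in conventional DCs 664 and 270 (ZsG-negative) and 141 and 318 (ZsG-positive), those between gates 236 and 338, and the melanocyte level 9.87 CPM; fewer UMIs leave fewer genes tested. Without members holding UMIs of other lineages the ZsG-positive share was 0.291%, the log2 ratio -3.86 and the genes higher in ZsG-positive pDCs 793. With totals lacking mitochondrial and ribosomal genes the secretory genes higher were 10 and the melanocyte level 29.8 CPM. With a minimum of 100 UMIs, 2216 genes were higher than in other ZsG-positive cells, 665 higher and 373 lower than in conventional DCs (ZsG-negative), 704 and 1094 (ZsG-positive), and 44 and 111 between gates, fewer genes being tested. Why the shares moved was not tested. Keeping only members with 3 of the 6 other pDC genes, an alternative chosen after seeing the data, moved none of these shares and counts further than those limits. Leaving out the conventional DC with most pigment UMIs was chosen in the same way. No paired analysis was possible because each gate was 1 library and no result came from a test. The 26 ZsG-positive pDCs, with 176964 UMIs, limit every comparison between gates.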

Other observations

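Of 18 MHC class I genes, 6 were higher and none lower than in ZsG-negative conventional DCs (33.3%, beside 19.4% of all genes), but only 2 were higher than in the other ZsG-negative cells (11.1%, beside 17.0%). *H2-Q7*, a class Ib gene, stood at 1135 CPM in ZsG-negative and 1238 CPM in ZsG-positive pDCs, and at 150 and 241 CPM in conventional DCs. It belongs to a family of near-identical genes, between which reads could be split. *Grn*, the growth factor progranulin of lysosomes, stood at 1051 and 978 CPM in pDCs against 137 and 531 CPM in conventional DCs.

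Of 18 hypoxia and glycolysis genes, 11 were lower and none higher than in other ZsG-negative cells (61.1% lower, beside 22.3% of all genes). Over conventional DCs, 3 of 17 were lower in the ZsG-negative library (17.6%, beside 11.2%) and 11 of 18 in the ZsG-positive library (61.1%, beside 18.8%). *Ldha*, lactate dehydrogenase A, stood at 330 and 486 CPM in pDCs, 839 and 834 CPM in other cells and 575 and 768 CPM in conventional DCs. Of 19 immediate early and stress genes, 13 were lower than in conventional DCs in each library (68.4%, beside 11.2% and 18.8% of all genes) and 1 higher in the ZsG-positive one (5.26%, beside 20.6%), with *Dusp1*, a phosphatase that ends MAP kinase signals, at 62.8 and 67.8 CPM in pDCs and 410 and 915 CPM in conventional DCs. Over other ZsG-negative cells 5 of the 19 were lower (26.3%, near the background). Over other ZsG-positive cells 14 were lower (73.7%, beside 15.6% of all genes) and 1 was higher. *Bcl2*, the survival factor, stood at 13.7 CPM in ZsG-negative pDCs against 168 CPM in the other cells and 43.6 CPM in conventional DCs.

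Receptors for growth factors were mixed. *Csf2rb2*, a receptor subunit related to the common beta chain, stood at 163 and 277 CPM in pDCs and 28.5 and 31.0 CPM in conventional DCs, while *Csf2rb*, the common beta chain, stood at 196 and 215 CPM against 165 and 180 CPM.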
